A study of Sparus aurata with 9 samples.

Results

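The livers described here came from adult gilthead sea bream (Sparus aurata) that had carried cortisol in a slow-release implant (200 µg per g of body weight) for 14 days. They are represented by the 3 arrays titled D14P1, D14P2 and D14P3, of 9 arrays in the series, and were selected by those titles and by no measured value. The groups set beside them were 3 arrays of livers after 7 days of the same implant, titled D7P1 to D7P3, and 3 control arrays, titled ControlP1 to ControlP3. Per the labels each array held liver RNA pooled from 2 fish, which makes 18 fish on the 9 arrays, while the design text states 36 in all and 6 for each condition. The arrays are called pools 1, 2 and 3. All fish came from a farmed stock of 108 g mean weight held at 15 °C under 12 h of light a day and were fasted from 24 h before the start until sampling. The cortisol groups had the implant injected into the body cavity under anaesthesia. The controls are labelled as having had no treatment, while the protocol describes controls given the coconut oil carrier without cortisol as well as fish without an implant taken at day 0. Neither source says which of these the control arrays hold or on which day they were sampled, so cortisol, the carrier, time and the length of the fast cannot be told apart in the comparison with control.

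Cortisol is the main glucocorticoid of bony fishes, released from the interrenal tissue of the head kidney during stress. In liver cells it binds glucocorticoid receptors, which move to the nucleus, bind DNA and raise or lower the transcription of their target genes. Bony fishes have no separate aldosterone system, and cortisol also acts through a mineralocorticoid receptor. The liver is one of its principal targets: prolonged exposure is known for shifting hepatic metabolism toward making glucose from amino acids and for altering growth, immune and reproductive functions of the liver. A coconut oil implant solidifies in the body cavity and releases the hormone slowly, which imitates chronic rather than acute stress.

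Transcripts were measured on 1-colour Agilent arrays, on which the brightness of a spot after hybridisation of Cy3-labelled RNA stands for the amount of a transcript. The probes are identified in the files used here by a probe number and by the contig or clone they were designed from. All 15156 sequence names were looked up among 32006 RefSeq genes (assembly fSpaAur1.1), with 0 matches. Sequences are therefore described by their behaviour, no gene or pathway is named, and the liver identity of the RNA could not be checked against marker genes. Levels are log2 signals from which the array's own 75th percentile was subtracted, so that 0 lies at that percentile and a difference of 1 between groups is a doubling. The value of a sequence was the mean of its probes, and 9955 sequences entered the test, each with a probe well above background on 3 or more of the 9 arrays.

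The 3 day 14 arrays were unequal in sensitivity. The share of spots well above background was 34.7% on day 14 pool 1, the lowest of the series, and 65.2% and 61.7% on day 14 pools 2 and 3, against 51.5% to 63.0% on the control arrays. The ratio of spike-in to negative control signal was 11.9, 47.9 and 351 on day 14 pools 1, 2 and 3, which lay on slides 2, 3 and 1. Control pools 1 and 3 lay on slide 1 with ratios of 122 and 135, and control pool 2 on slide 3 with 24.8. Over 9899 sequences measured on all arrays, day 14 pools 2 and 3, on different slides, correlated at 0.966. Day 14 pool 1 correlated with them at 0.925 and 0.921. Control pools 1 and 3, on the same slide, correlated at 0.974, and control pool 2 with them at 0.909 and 0.920. The arrays did not all sort by group. Day 14 pool 3 correlated at 0.937 and 0.949 with control pools 1 and 3, which shared its slide, above its value with day 14 pool 1. Day 14 pool 1 and control pool 2 each correlated most with day 7 pool 2, at 0.944 and 0.934. These are correlations across sequences, which are not independent replicates.

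The spread within an array was read from repeated spots. For probes printed on 15 spots and well above background on all of them, the median SD between spots was 0.112, 0.116 and 0.102 log2 units on day 14 pools 1, 2 and 3, over 40, 90 and 87 probes. On the control arrays it was 0.0970 to 0.153. The median SD of a sequence between the 3 pools was 0.34 in the day 14 group and 0.35 in the controls, over all tested sequences, dim ones included. Differences between pools of fish, between labellings and between slides cannot be told apart within that spread.

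After 14 days of cortisol, 40 of the 9955 liver sequences differed from control, 21 higher and 19 lower (limma, Benjamini-Hochberg adjusted p under 0.05). That is 0.402% of all sequences tested, 0.211% called higher and 0.191% called lower. The changes that passed were large, which the test favours by its construction with 3 arrays a group. Sequences that rose did so by 2.97-fold to 25.8-fold as fitted, with a median of 5.16-fold, and 13 of the 21 rose at least 4-fold. No control array was above background for 4 of the 21. These 4 reached the 3 arrays asked for only with day 14 arrays counted, so their calls are no support for a difference. With the levels of these 4 raised to the lowest clear signal of an array where they lay under it, the range over the 21 was 2.97-fold to 17.0-fold. The median was then 4.79-fold and the count at 4-fold still 13. Sequences that fell were 2.54-fold to 11.01-fold lower, with a median of 3.44-fold, and 8 of the 19 fell at least 4-fold. All 3 day 14 arrays were above background for 11 of the 19. The largest of these falls rested on 1 probe, above background on 2 day 14 arrays. For 1 of the 19 no day 14 array was above background. The same step for it left the range, median and count of falls as they were. That sequence was above background on no day 7 array either. It was tested only because of its control values, and its call is no support for a difference. Adjusted p ran from 0.0174 to 0.0485 over the 40. In the 9955 the median difference between day 14 and control was 0.02 and the median size of a difference 0.37 log2 units. A fitted difference of at least 2-fold was seen in 555 sequences that were higher and 550 that were lower, called or not. The scaling centres each array, so the median near 0 is no result.

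**Figure D1:**
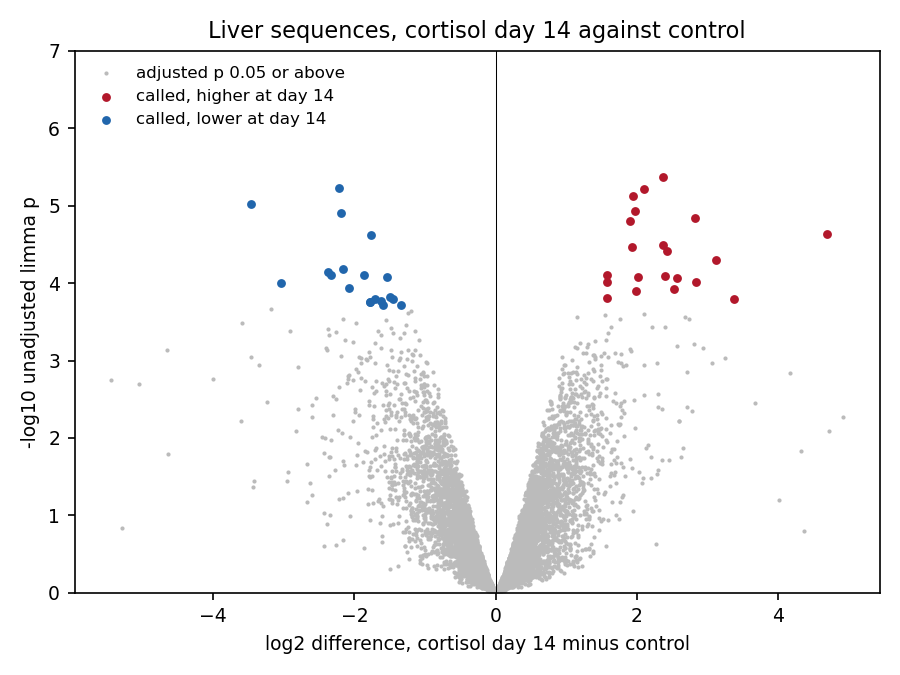
Each point is 1 of 9955 liver sequences, with the log2 difference between cortisol day 14 and control on the horizontal axis and the negative log10 of the unadjusted limma p on the vertical axis (n = 3 arrays a group). The 21 sequences called higher (red) and 19 called lower (blue) lie on both sides at comparable numbers, and many grey points with large differences were not called.

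The balance between rising and falling sequences depended on the scaling. With array medians in place of the percentile, 22 were higher and 4 lower, and quantile normalization gave 16 higher and 10 lower. Normexp background correction gave 1 higher and 2 lower. It started from the median signal of a spot in place of the detrended one and added an offset of 50. Such an offset shrinks differences between dim signals, and which of these steps lowered the count was not tested. Leaving out day 14 pool 1, which stood apart, gave 20 higher and 11 lower, of which 22 were among the 40. Without control pool 2, the control that stood apart, 31 were higher and 39 lower, of which 33 were among the 40. Without control pool 1, control pool 3, day 14 pool 2 or day 14 pool 3, limma called 0 sequences, with 1222, 1272, 1220 and 1398 at an unadjusted p under 0.05. Without day 7 pool 2 there were 21 calls and without day 7 pool 3 there were 76, as these arrays entered only through the shared estimate of the spread.

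**Figure D2:**
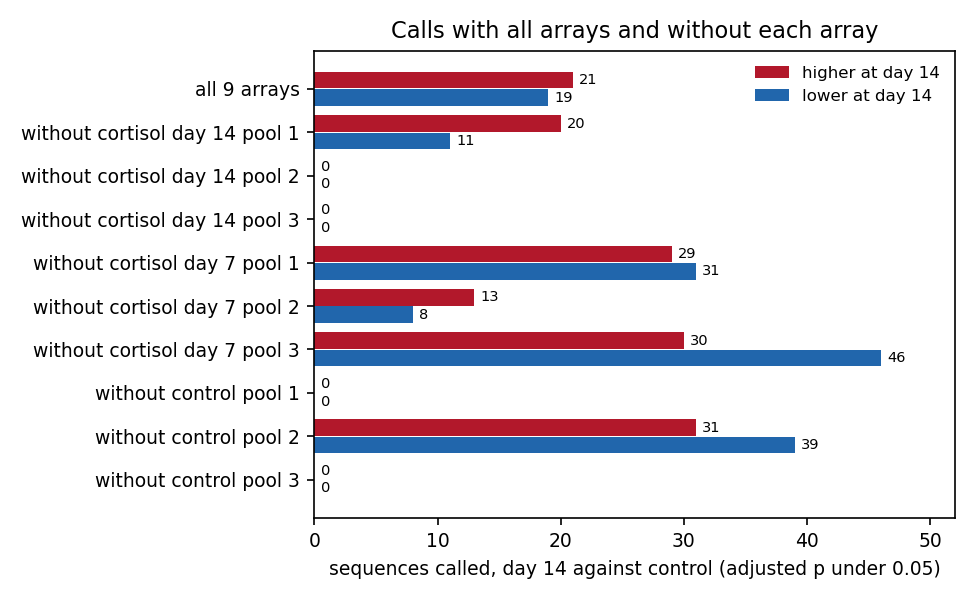
Bars give the number of sequences called at cortisol day 14 against control (adjusted p under 0.05), higher in red and lower in blue, with all 9 arrays and with each array left out. The count is 0 without day 14 pool 2 or 3 or without control pool 1 or 3, and reaches 30 higher and 46 lower without day 7 pool 3.

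Large differences were more common than calls. A fitted change of at least 4-fold was seen in 55 sequences that were higher and in 77 that were lower at day 14. Of these, 21 passed the test and 111 did not, and the median SE of the 111 was 0.74. Over all 40 called sequences, smaller changes included, it was 0.28, and the test favours a small SE by its construction. At an unadjusted p under 0.05 there were 924 sequences higher and 827 lower. At an adjusted p under 0.1 there were 236, of which 111 were higher and 125 lower. The lowest adjusted p above the threshold was 0.0524, so no gap divided the called sequences from the next ones.

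In all 40 called sequences the 3 day 14 arrays lay on one side of the 3 controls. Such separation was common: it held for 2594 of 9899 sequences, or 26.2%, of which 1365 (13.8%) were higher and 1229 (12.4%) lower at day 14. In the 40 the smallest distance between the nearest arrays of both groups was 1.01 log2 units and the median distance 1.56. The called sequences were also tighter within groups than most: their median SD was 0.23 in the day 14 group and 0.25 in the controls, which the test favours by its construction.

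The 3 day 14 pools differed in how far they departed from control. Over the 21 sequences that rose, the median departure from the control mean was 2.09 in pool 1, 2.39 in pool 2 and 2.31 in pool 3. Over the 19 that fell it was -1.80, -2.09 and -1.89. Pool 2 was the farthest from control in 23 of the 40 and pool 1 the nearest in 24. The medians of the control arrays lay between -0.14 and 0.25 over the rising sequences and between -0.12 and 0.17 over the falling ones.

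**Figure D3:**
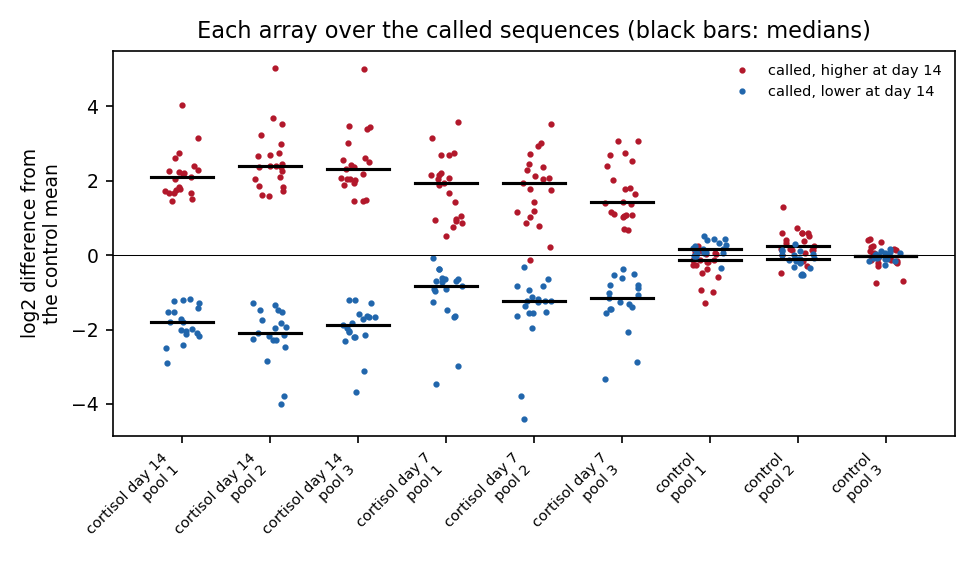
Points are the called sequences on each array, as log2 difference from the control mean, red for the 21 that rose and blue for the 19 that fell at day 14, with black bars for medians. The medians of the day 14 pools lie between 2.09 and 2.39 for rising and between -1.80 and -2.09 for falling sequences, farther from 0 than those of the day 7 pools, which lie between 1.42 and 1.95 and between -0.84 and -1.23.

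Each slide held 1 day 14 array, and slides 1 and 3 also held controls, so the difference could be read within a slide. Within slide 1, day 14 pool 3 exceeded the mean of control pools 1 and 3 by a median of 2.38 (range 1.47 to 5.36) over the 21 rising sequences. Within slide 3, day 14 pool 2 exceeded control pool 2 by a median of 2.09 (range 1.17 to 4.30). For the 19 falling sequences the medians were -1.95 within slide 1 and -1.87 within slide 3. These arrays also served to choose the sequences. Slide 2 held day 14 pool 1 and no control. With slide as a block in the fit, 52 sequences were called, 23 higher and 29 lower, and 26 of the 40 were among them. With scan day as a block there were 26, of which 18 were among the 40. Slide 1 was scanned on day 1 of the scans and slides 2 and 3 on day 2, so this block is a coarser form of the slide block.

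The sequence with the largest rise among the called ones measured by several probes was the clone cDN11P0005A21.F.ab1. Its level was -1.04, -0.06 and -0.07 in day 14 pools 1, 2 and 3, and -5.05, -4.36 and -5.82 in control pools 1, 2 and 3. The day 14 arrays lay near the 75th percentile of the array or just under it, and every control array lay at background. No probe of it was well above background on any control array, so the fold is given against a floor. That floor is the lowest log2 value among the probes well above background on each array. A signal not above background can lie over it, so such a fold is no strict bound. Against that floor its day 14 level was 17.0-fold higher. The fit without the floor gave a change of 4.69 on the log2 scale, with a limma adjusted p of 0.0216 (means -0.39 ± 0.56 and -5.08 ± 0.73, SD, n = 3). CUST_16087_PI419285025 was above background on the 3 day 14 arrays only, and CUST_16089_PI419285025 on day 14 pools 2 and 3 and day 7 pool 1. The sequence was therefore tested only because of its day 14 values, and its call is no support for a difference. The call was lost with no filter on dim probes (4.55, limma adjusted p 0.0956), with slide as a block (fitted change 4.52, limma adjusted p 0.0522) and under normexp background correction, where the change was 2.15 (limma adjusted p 0.0582).

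Its probes did not read day 14 pool 1 alike. The probe CUST_16087_PI419285025 stood at -0.40 there, CUST_16089_PI419285025 at -1.68 and CUST_16088_PI419285025 at -3.42. The last was well above background on only 2 of the 9 arrays and so did not enter the value of the sequence. Of the probes that did enter, only CUST_16087_PI419285025 was well above background on day 14 pool 1. Tested by itself against control, CUST_16089_PI419285025 was not called (limma adjusted p 0.0658). In day 14 pools 2 and 3 all of its probes lay between -0.16 and 0.04. Day 7 arrays read -3.01, -5.22 and -4.38, and a probe was well above background on 1 of these 3. With the floor in place of lower values, the day 14 level was 12.2-fold that of day 7. The limma adjusted p of 0.206 did not pass and was the lowest value that any sequence reached in that comparison, shared with others.

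Contig2453 was the next, and it was among the brighter sequences at day 14. Its level was 5.96, 6.35 and 6.29 in day 14 pools 1, 2 and 3, and 1.54, 4.11 and 2.82 in control pools 1, 2 and 3. The day 14 pools were close together (6.20 ± 0.21) and the controls were widely spread (2.83 ± 1.29, SD, n = 3), with no overlap. The change of 3.37 ± 0.54 (SE), a 10.4-fold rise, had a limma adjusted p of 0.0462. Its 3 probes changed by 3.32 to 3.46. The change was 4.11 within slide 1 and 2.23 within slide 3, where control pool 2, the highest control, was the comparison. Its call was lost under 17 of 27 alternatives, among them slide as a block (3.23, adjusted p 0.0587), leaving out day 14 pool 1 (3.49, adjusted p 0.0869) and making the pool number a block (3.37, adjusted p 0.0535), all by limma. A fit of the 6 day 14 and control arrays alone, without the spread of the day 7 group, also lost the call (3.37, limma adjusted p 0.0781). The day 7 level was 6.40, 6.35 and 5.90, in the same range as day 14. Day 14 minus day 7 was -0.02 ± 0.54 (SE). That SE drew on the spread within all 3 groups, the controls included. In a fit of the 6 day 14 and day 7 arrays alone it was 0.25.

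Contig1270 had the largest fall among called sequences measured by several probes and above background on all control arrays. Its level was 0.69, 0.53 and 0.48 in day 14 pools 1, 2 and 3, and 3.03, 2.81 and 2.53 in control pools 1, 2 and 3. It fell by 2.22 on the log2 scale, which is 4.67-fold (SE 0.24, limma adjusted p of 0.0174). Each group was tight, with an SD of 0.11 at day 14 and 0.25 in controls, and the groups lay far apart. Its 3 probes changed by -2.28 to -2.15, and the change was -2.30 within slide 1 and -2.28 within slide 3. At day 7 the values were 1.13, 0.84 and 1.40, each above the values of day 14 and below those of control. Day 14 minus day 7 was -0.56 ± 0.24 (SE), with a limma adjusted p of 0.423.

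Seabream_2006-01-03-CL2832Contig1 was the other falling sequence chosen by that rule, and an abundant one on its probes. Its level was 4.01, 3.84 and 3.98 in day 14 pools 1, 2 and 3, and 6.53, 5.82 and 6.05 in control pools 1, 2 and 3. The 3 day 14 pools lay close together (SD 0.09) and below every control (SD 0.36). It fell by 2.19 on the log2 scale, or 4.57-fold (SE 0.25, limma adjusted p of 0.0174). Its 3 probes changed by -2.28 to -2.14, and the change was -2.31 within slide 1 and -1.98 within slide 3. Day 7 values of 4.87, 4.497 and 5.05 lay between the other groups, and day 14 minus day 7 was -0.86 ± 0.25 (SE), with a limma adjusted p of 0.312.

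**Figure D4:**
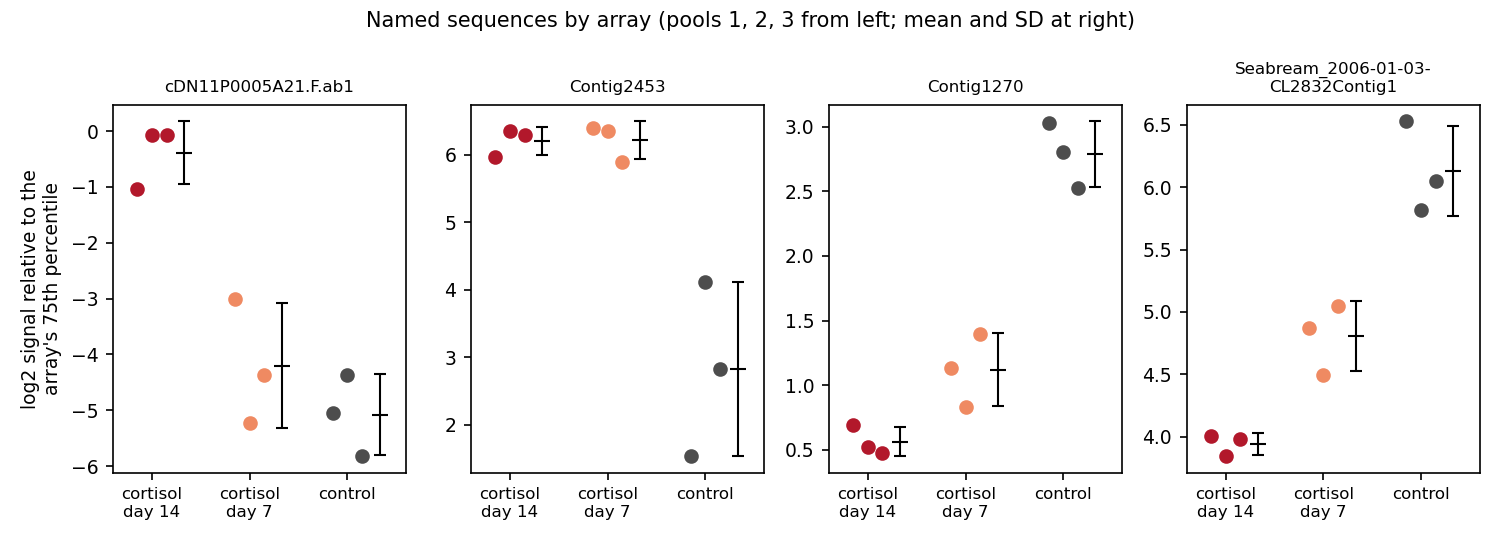
Levels of the 4 named sequences on each array (log2 signal minus the array's 75th percentile), with pools 1, 2 and 3 from left to right in each group and the mean and SD beside them (n = 3). Day 14 and control do not overlap in any panel, while day 7 lies with day 14 for Contig2453, between the groups for Contig1270 and CL2832Contig1, and near control for cDN11P0005A21.F.ab1.

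Several probes measured 23 of the 40 called sequences, 68 probes in all. All 68 had the direction of their sequence, which averaging favours, and 51 were called when each probe was tested by itself. Over all 18278 probes tested in that way, 90 were called. The 68 belong to sequences called on the same arrays, so the 51 are no separate support. The probes of a called sequence differed by a median of 0.28 log2 units between the highest and lowest change, against 0.27 over all 4444 sequences with several probes. The largest disagreement within a called sequence was 2.11. The remaining 17 called sequences rested on a single probe. By share, 23 of 4444 sequences with several probes were called (0.518%) and 17 of 5511 with a single probe (0.308%).

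Calls came from the whole range of levels. With the tested sequences divided by mean level into 4 classes of equal size, the called ones numbered 6, 9, 13 and 12 from the dimmest to the brightest class. The median SE fell in the same order, with 0.44, 0.36, 0.30 and 0.27, so that a change of a given size was less likely to be called in dim sequences. In that order the classes held 4, 4, 5 and 8 that rose and 2, 5, 8 and 4 that fell. By kind of name, 18 of 4768 sequences named as contigs were called and 21 of 4948 clones with the cDN prefix, shares of 0.378% and 0.424%, close to the 0.402% of all sequences. The cDN clones carry 14 numbered prefixes, and the called ones were scattered over 10 of these with at most 3 in each.

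Few of the 9955 sequences tested were above background on all arrays of a group and on none of the other. Apart from cDN11P0005A21.F.ab1, 4 more were above background on all day 14 arrays and on no control array, and these were not called. In the opposite direction, 16 sequences were above background on all control arrays and on no day 14 array. Against the floor their day 14 level was 2.002-fold to 26.7-fold lower, with a median of 3.29-fold. Only 1 of the 16 was called, and it was tested only because of its control values. They were picked by the same contrast, so their direction is no result. On day 14 pools 2 and 3 alone, 111 of the 9955 were above background while being so on no control array. With day 14 pool 1 required too there were 5. Requiring another array can only lower such a count, and whether the low sensitivity of that array mattered was not tested. The count in the opposite direction was 16 either way.

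The day 7 livers placed the day 14 values in time. As the fast ran until sampling, time with the implant and length of the fast cannot be told apart between day 7 and day 14. Over the 21 sequences that rose at day 14, the median difference from control was 2.37 at day 14 and 1.69 at day 7, and the day 7 differences ran from 0.56 to 3.39. Over the 19 that fell, the medians were -1.78 at day 14 and -1.08 at day 7, with day 7 differences from -3.57 to -0.45. Both times were set against the same 3 controls, and the sequences were chosen on the day 14 arrays, which favours larger differences at day 14. Among the 21, day 14 exceeded day 7 in 9 and lay below it in 2 at an unadjusted limma p under 0.05. Among the 19, day 14 lay below day 7 in 11 and above it in 0 at that p. Over all 9955 sequences tested, 637 were higher and 504 lower at day 14 than at day 7 at that p. The called sequences were chosen on the same day 14 arrays, so their larger shares are no support for a change between the times. No called sequence passed the adjusted test between the times, with 0.206 as the lowest adjusted p.

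**Figure D5:**
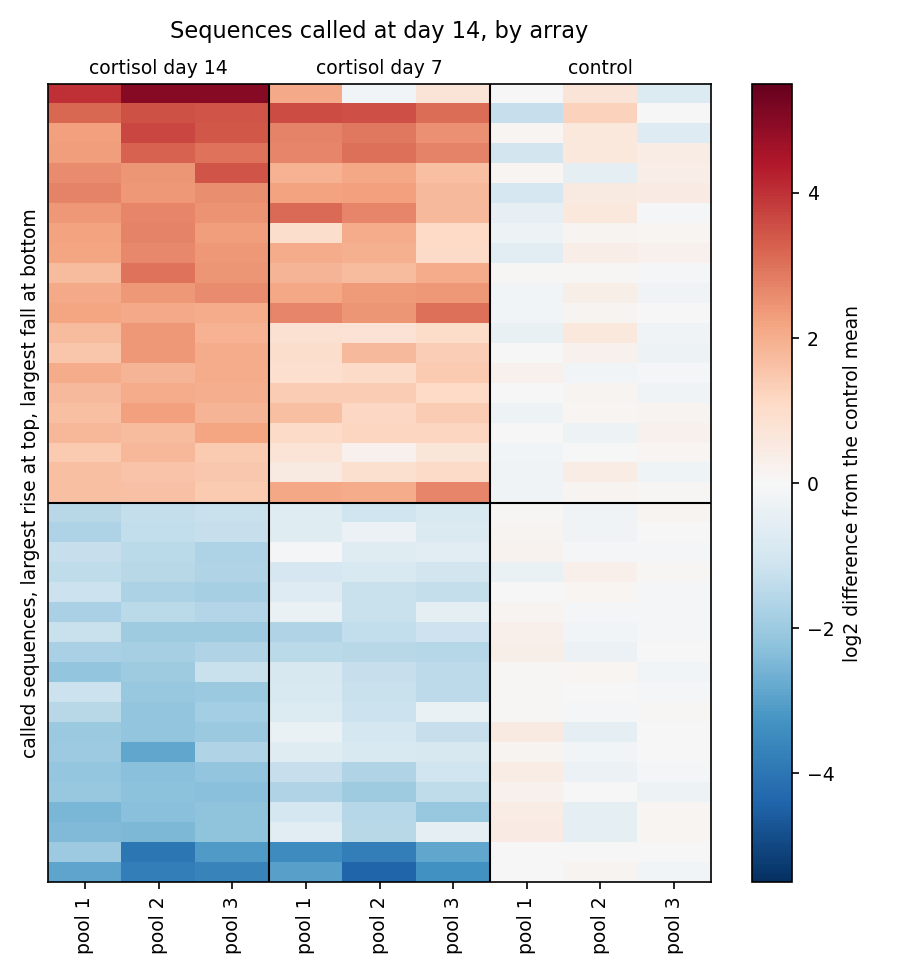
Rows are the 40 called sequences, ordered by their change at day 14, columns are the 9 arrays, and colour is the log2 difference from the control mean. The upper 21 rows are raised and the lower 19 are lowered in all 3 day 14 pools, with paler colour in most day 7 columns, and the top row, cDN11P0005A21.F.ab1, is strongest in the day 14 columns.

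Across the whole table, no sequence passed the test between the 2 times. Limma called 0 of 9955 sequences (0%) between day 14 and day 7, with 637 higher and 504 lower at day 14 at an unadjusted p under 0.05. Tested probe by probe, 1 probe was called, CUST_16087_PI419285025 (limma adjusted p of 0.0287, 17.7-fold higher against the floor). That probe was above background on the 3 day 14 arrays and on no other, so it was tested only because of its day 14 values, and its call is no support for a difference. The median size of a difference between the times was 0.35 log2 units, against 0.37 between day 14 and control, and the groups did not overlap in 1841 of 9899 sequences, or 18.6%, against 26.2%. A difference of at least 4-fold between the times was fitted in 48 sequences. With 3 pools a group these values do not show that the livers were alike at both times.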

How the data were processed

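Per the file headers, Agilent Feature Extraction 10.7.3.1 produced the spot values of these 1-colour arrays, and the deposited intensity used here is the Cy3 brightness of a spot after background subtraction and detrending. The files of control pools 1 and 2 and day 14 pool 3 give it to 3 significant digits. The authors' deposited table holds log2 background-subtracted signals, except day 7 pool 3, whose column is a logarithm to base 20, as found by comparison with the scanner values. It was used as an alternative.

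Values were log2 intensity minus the 75th percentile of the array over 43803 non-control spots. Outlier spots were left out, spots averaged per probe, and the 18278 probes above background (at least 50% of spots) on 3 or more arrays averaged per sequence. In 56 sequences an array without a usable spot was dropped. The 3 groups were fitted together with limma 3.58.1 in R 4.3.3 (6 residual degrees of freedom), and the procedure was tested on simulated data. P-values rest on the spread between arrays within the groups, in which pools of fish, labellings and slides cannot be told apart. The named sequences were the 2 with the largest rise and the 2 with the largest fall among called ones with at least 2 probes, above background on all 3 arrays of the brighter group, of 10 that rose and 12 that fell. The group, rule and lists were chosen with earlier results of these data known. Gene lists and cell type markers could not be used without gene names, and no probe sequence was used here. The number of arrays limits the precision. Figures were drawn with matplotlib 3.10.9.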

Additional observations from a re-analysis of the deposited data

How the results depend on the processing

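Each result was recomputed with other scalings, background corrections, filters, summaries, blocks, variance models and array weights and without each array. The direction of the 40 called sequences was the same in all 1063 cases in which an alternative tested them by sequence, which their choice by separated groups largely fixed. Their calls varied: a sequence was called in 9 to 22 of up to 27 alternatives. Contig1270 was called in 22 of 27, Seabream_2006-01-03-CL2832Contig1 in 21 of 27, cDN11P0005A21.F.ab1 in 18 of 25 and Contig2453 in 10 of 27, with limma adjusted p of 0.000734 to 0.098, 0.000611 to 0.103, 0.000611 to 0.143 and 0.000976 to 0.216. Against control, the 40 calls became 26 with median scaling, with quantile normalization and with scan day as a block, 3 with normexp, 2 with the authors' table on the log2 scale and 0 without a filter on dim probes (limma gave 1501 at an unadjusted p under 0.05). They became 137 over probes above background on all arrays, 73 over those above background on all arrays of a group, 90 probe by probe, 98 with an eBayes trend and 1936 with array weights, which ran from 0.302 for control pool 2 to 5.53 for control pool 3. Leaving out an array gave 0 to 76. Of the 4 named sequences, 2 were called with normexp or slide as a block, 1 with the authors' table, 0 without a filter, and 0 to 4 without an array. Between day 14 and day 7, the count of 0 became 1 with the group filter or by probe, 1003 with array weights, 7 with slide as a block on slides 1 and 3 (chosen after seeing the data) and 0 to 1 without an array. The group filter and the test by probe called the same probe, CUST_16087_PI419285025, which was tested only because of its day 14 values. Neither call is support for a difference. The cause of these changes in the counts was not tested. Deviations from the group means of arrays with the same pool number correlated at -0.29, -0.02 and 0.42 between day 14 and control, 0.09, 0.29 and 0.30 between day 14 and day 7, and 0.10, 0.11 and 0.28 between day 7 and control. As not all exceeded 0.1, the numbers were not taken as pairing the arrays. The pool numbers largely followed the slides: all arrays of pool 2 lay on slide 3 and all of pool 3 on slide 1. Day 7 and day 14 pool 1 lay on slide 2, and control pool 1 on slide 1. The scan day also followed the slides. Blocks by slide, by scan day and by pool number are therefore not separate checks. As a replicate block, the pool number gave 34 calls, 23 of them among the 40, and left 0 between day 14 and day 7 and 3 of the 4 named calls. The share of spots well above background, lowest on day 14 pool 1 at 34.7%, limits what can be read of dim sequences there.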
